A study of Sus scrofa with 8 samples.

Results

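The heart's extracellular matrix is held here by 52 listed genes for glycoproteins, proteoglycans and enzymes that remodel them, and their expression was followed in the hearts of Tibetan and Yorkshire pigs. Members were taken by gene symbol, from a list made with earlier results of these data known. Of the 52 symbols, 45 were found in the deposited expression table, in 47 of its 18975 rows, because TNC and ADAMTS1 each have 2 rows. The 4 groups were Tibetan pigs raised at highland (TH) and at lowland (TL), and Yorkshire pigs raised at highland (YH) and at lowland (YL), at 3000 m and 100 m. All pigs were males of 6 months, the tissue was whole heart, and each group had 2 RNA-seq libraries, each from a pool of 4 animals. No agent was given and no gene was altered. Nothing in the labels says in which chamber of the heart the tissue was taken. The descriptions of the YL libraries point to the TL data, and these libraries were taken as YL by their titles and breed.

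Matrix genes of the heart are transcribed mainly by fibroblasts, with part from smooth muscle and endothelial cells. Collagen fibrils and elastic fibres carry load between muscle cells. Small leucine-rich proteoglycans bind collagen and set the width of its fibrils, lysyl oxidases cross-link collagen and elastin, matricellular proteins such as tenascin-C and osteopontin appear during injury or stretch, and metalloproteinases and their inhibitors govern turnover.

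Levels are given in FPKM, the fragments that map to a gene after division by its transcript length and by the mapped fragments of the library. Differences are log2 fold changes of FPKM + 1, from 1 limma fit of all 8 libraries, with the standard error (SE). A member was called at an adjusted p under 0.01, over all 11913 genes that reached 1 FPKM in at least 2 libraries, and a log2 fold change above 1 or below −1. Of the 47 member rows, 45 passed this filter. MMP9, a gelatinase of white blood cells, lay between 0.000 and 0.113 FPKM, and ADAMTS5, an aggrecanase, between 0.0449 and 0.584, and neither was tested. FBN2, a fibrillin, and the longer of the TNC rows passed only through TH2 and YH2, and LOXL4 only through the TH libraries. The counts below hold these 3 rows. The symbols THBS4, FBLN2, NID1, AGRN, LOXL3, TIMP2 and MFAP4 were not among the names of the table.

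Reads on genes ranged from 15687144 (TH2) to 26721951 (TH1), with a median of 19648273, and 2 libraries stood apart from the rest. TH1 had the lowest value of all 8 libraries in 26.7% of genes tested and the highest in 24.96%. YL2 was lowest in 22.5% and highest in 24.7%, and it carried kidney transcripts. The listed kidney genes summed to 5122 FPKM in YL2 and to 1.14-18.2 in the other 7 libraries, with UMOD, the urinary uromodulin, at 947 FPKM there and at 0.811 or less in the rest. The heart's own markers were present in every library, with TNNI3, cardiac troponin I, between 4597 and 16847 FPKM. Since the libraries are pools of tissue, fewer cells of a type and less RNA per cell cannot be told apart.

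Levels of the matrix genes differed from library to library, also within a group. TH2 was the highest of 8 libraries in 24 of 45 members (53.3%, against 8.75% of all genes tested), and YL2 was the lowest in 20 (44.4%, against 22.5%). TH1 was lowest in 10 members (22.2%, against 26.7%). In 6 members, FBLN1, TIMP3, FBN1, LOX, PRELP and SPARC, TH1 lay so low that every other library was more than 2 times higher (13.3%, against 6.44% of all genes). The 2 TH libraries differed by more than 1 on the log2 scale in 18 members (40.0%, against 10.9% of all genes), and TH2 was the higher library in all 18. In TL this held for 1 member (2.22%, against 2.02% of all genes), in YH for 5 (11.1%, against 2.33%) and in YL for 8 (17.8%, against 19.1%). In TH, THY1, a fibroblast marker outside the matrix, was 34.7 and 39.3 FPKM, and TCF21, another, was 5.89 and 17.7. Most of the listed fibroblast markers are collagen genes, which are matrix genes themselves, so the list is no separate reading of fibroblasts. The summed level of the fibroblast markers (12 of 13 rows tested) was 217 FPKM for TH1 and 740.5 for TH2, 697 and 555 for TL, 266 and 353 for YH, and 220.4 and 188 for YL, and their part in the results was not tested.

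**Figure D1:**
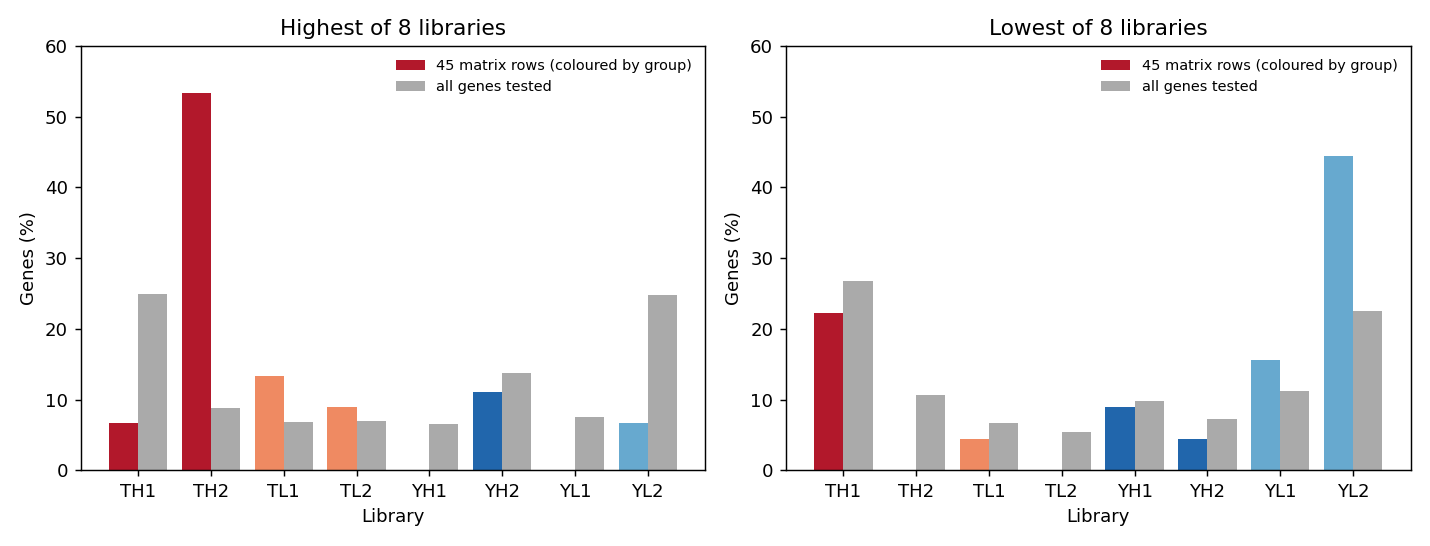
Share of the 45 matrix rows tested (bars coloured by group) and of all 11913 genes tested (grey bars) in which each library was the highest (left) or lowest (right) of 8, in percent. TH2 was highest in 53.3% of the matrix rows against 8.75% of all genes, and YL2 was lowest in 44.4% against 22.5%.

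**Figure D2:**
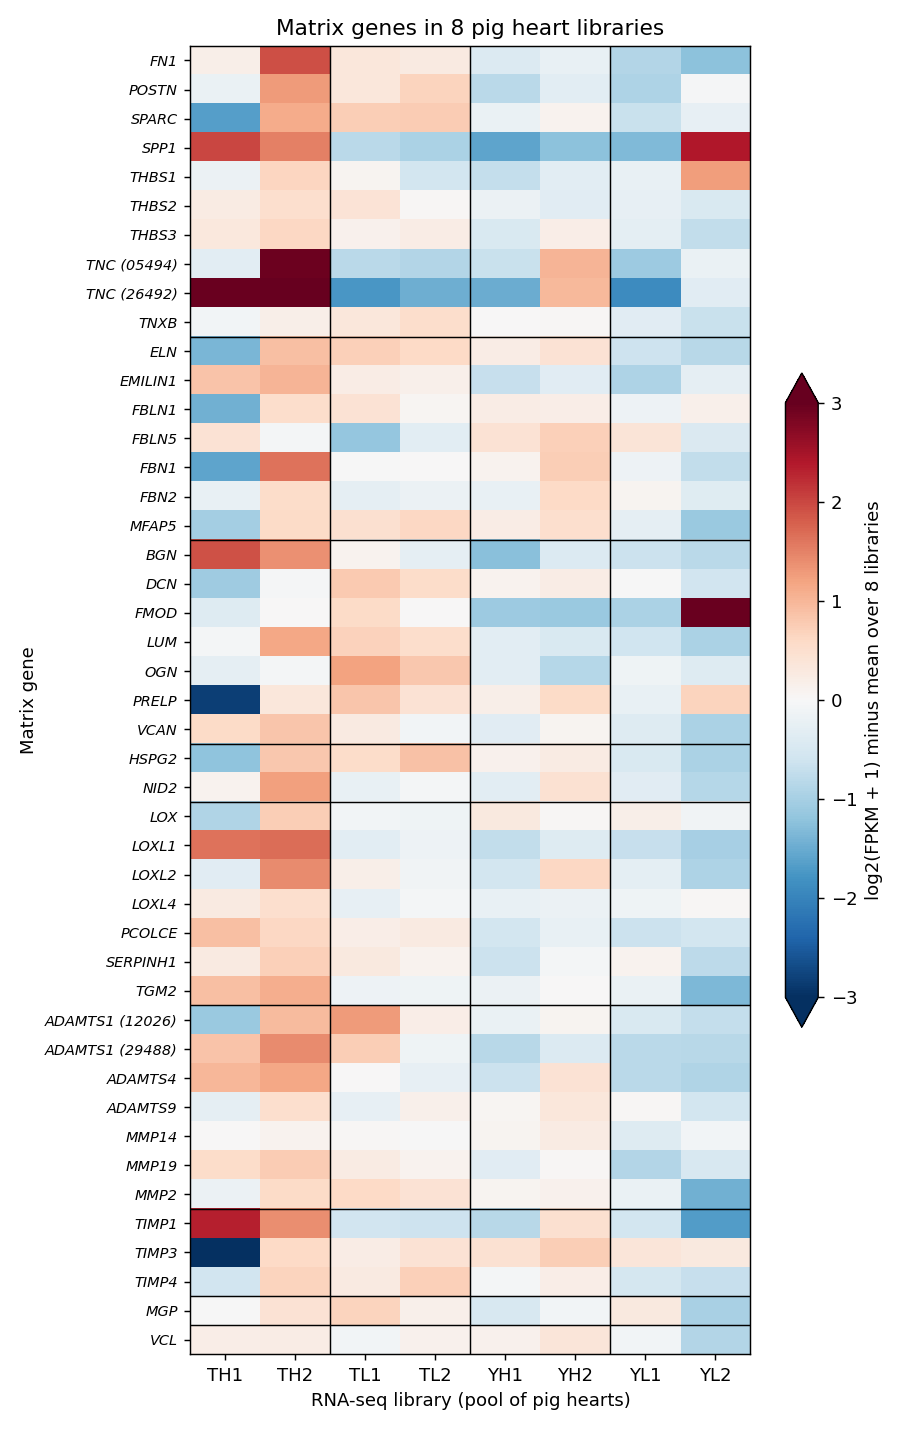
Level of each of the 45 matrix rows tested in the 8 libraries, as log2(FPKM + 1) minus the mean of the row over the libraries, with horizontal lines between functional classes and vertical lines between groups (colours end at 3 in either direction, and the last 5 digits of the gene ID mark the rows of TNC and ADAMTS1). TH2 is high in most rows, TH1 is low in TIMP3, PRELP and FBN1, and YL2 alone is high in FMOD.

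The breeds were compared first, at each altitude. No member was called in TH to YH, where 0.0336% of all genes tested were called, nor in TL to YL, where 0.00839% were. At an unadjusted p under 0.05, 16 of 45 members, LOXL4 among them, were higher in TH than in YH and 0 lower, against 16.2% of all genes in either direction, and 15 were higher in TL than in YL and 0 lower, against 8.94%. The median log2 fold change of the members was 0.59 in TH to YH and 0.64 in TL to YL, beside −0.03 and 0.02 over all genes. In FPKM, both TH libraries lay above both YH libraries in 23 members (LOXL4 included) and below them in 2, against 25.2% and 27.3% of all genes. Both TL libraries lay above both YL libraries in 30 members and below them in 0, against 23.8% and 17.8%. These comparisons share no library, and 16 members were higher without overlap in both (35.6% of the members, 6.90% of all genes).

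These counts depended on how the libraries are scaled. With every library brought to the same FPKM sum, which shifts the median of all genes to −0.50 in TH to YH and −0.23 in TL to YL, the medians of the members were −0.13 and 0.28, above the shift in each. The counts without overlap then were 4 higher and 2 lower in TH to YH, against 1.15% and 38.7% of all genes, and 18 higher and 2 lower in TL to YL, against 6.88% and 10.04%. With median-ratio scaling they were 17 and 2 in TH to YH, against 21.2% and 32.1%, and 29 and 2 in TL to YL, against 19.7% and 19.4%. Without TH1, which leaves 1 library in TH, the median in TH to YH was 0.96, and without TH2 it was 0.26. Without YL2, the median in TL to YL was 0.47.

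**Figure D3:**
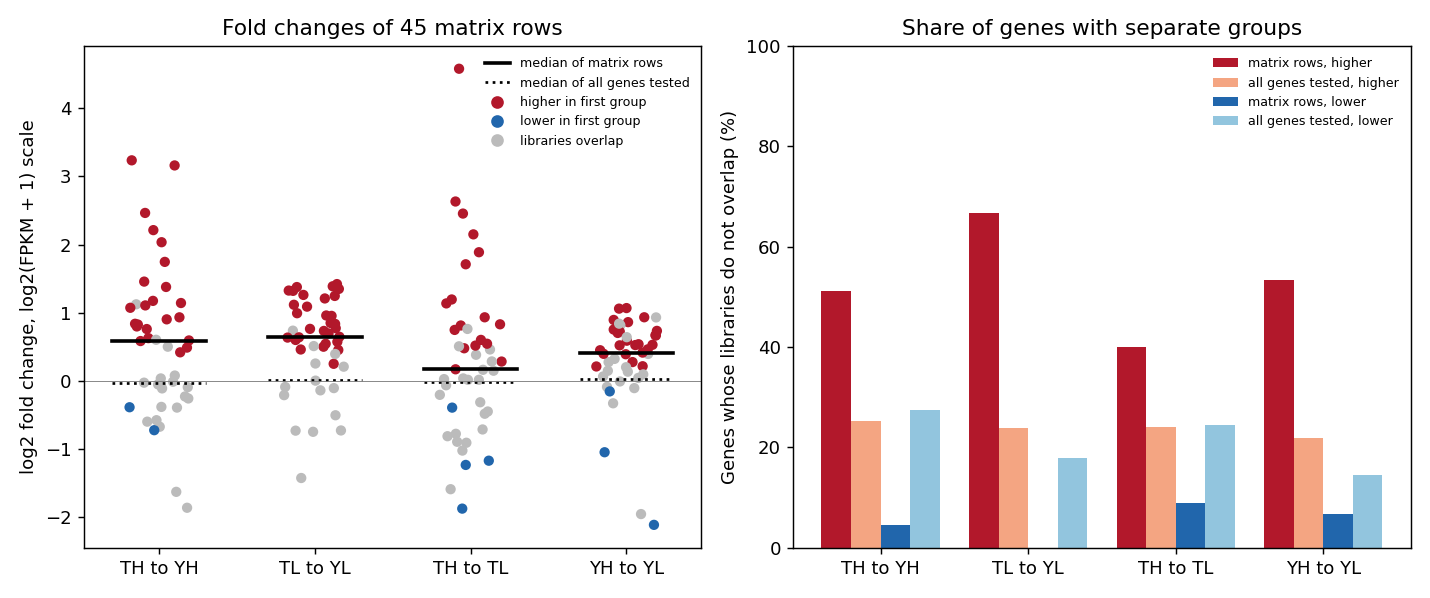
Left, log2 fold change of each of the 45 matrix rows (points; red and blue, libraries do not overlap) in the 4 comparisons, with the median of the matrix rows (solid line) and of all genes tested (dotted line). Right, percent of matrix rows and of all genes tested with groups that do not overlap, which for higher levels was above that of all genes in each comparison.

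Cross-linking and collagen-processing enzymes held the member with the lowest p. LOXL1, a lysyl oxidase-like enzyme needed to maintain elastic fibres (ENSSSCG00000001914, chromosome 7, 64102993-64126775 in Sscrofa10.2, the build of all positions here), had FPKM of 22.02 and 22.98 for TH, 5.001 and 5.71 for TL, 3.49 and 4.72 for YH, and 3.68 and 2.73 for YL. Its TH libraries lay close together and far above the other 6. The difference was 2.21 ± 0.22 (SE, adjusted p = 0.0284) in TH to YH and 1.89 ± 0.22 (SE, adjusted p = 0.0589) in TH to TL, by limma with Benjamini-Hochberg adjustment. In TL to YL it was 0.60 ± 0.22 (SE, adjusted p = 0.49). LOXL1 was the only member under an adjusted p of 0.05 in TH to YH and over both altitudes, where 31 and 56 of all 11913 genes tested were. Over both altitudes, its level in Tibetan pigs stood 1.41 ± 0.16 (SE) above that in Yorkshire pigs, with an adjusted p of 0.0287. Over the alternatives tried, this adjusted p ranged from 0.00542 without YL1, past the threshold, to 0.646 with equal FPKM sums. In TH to YH it ranged from 0.0215 without YL2 to 0.709 with equal FPKM sums, where the log2 fold change was 1.09, and was 0.0506 with median-ratio scaling and 0.151 without TH1.

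PCOLCE, which enhances removal of the procollagen C-propeptide (ENSSSCG00000027466, chromosome 3, 7918397-7923583), had 66.7 and 54.8 for TH, 41.1 and 42.7 for TL, 23.96 and 30.01 for YH, and 22.3 and 23.7 for YL. Its 4 groups did not overlap, in the order TH, TL, YH, YL. The breed difference was 1.14 ± 0.22 (SE, adjusted p = 0.0974) at highland and 0.84 ± 0.22 (SE, adjusted p = 0.311) at lowland, and 0.18 and 0.47 with equal FPKM sums. SERPINH1, the collagen chaperone HSP47, reached 168 and 229 for TH, 171 and 151 for TL, 89.5 and 133 for YH, and 150.4 and 79.9 for YL. The lowest Tibetan library (TL2) and the highest Yorkshire library (YL1) were nearly level, and its breed difference was 0.84 ± 0.38 (SE, adjusted p = 0.333) in TH to YH, which was −0.13 with equal FPKM sums.

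TGM2, a transglutaminase that cross-links matrix proteins, was 145 and 165 for TH, 69.6 and 70.03 for TL, 68.4 and 77.96 for YH, and 66.4 and 29.5 for YL. Its TH libraries lay above the other 6, and YL2 lay below all others. The difference was 1.07 ± 0.37 (SE, adjusted p = 0.245) in TH to YH and 1.14 ± 0.37 (SE, adjusted p = 0.325) in TH to TL, and 0.10 and 0.50 with equal FPKM sums. Its TL to YL difference of 0.64 went to 0.07 without YL2.

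LOXL4, another lysyl oxidase homologue, stayed low at 1.01 and 1.36 for TH, 0.389 and 0.599 for TL, 0.407 and 0.476 for YH, and 0.507 and 0.7003 for YL. It was tested only because both TH libraries reached 1 FPKM, so that the higher level in TH than in YH and TL (0.60 ± 0.21 and 0.55 ± 0.21, SE) is a description, and in YH it was below YL without overlap (−0.15 ± 0.21 (SE, adjusted p = 0.881)). LOX, the founding enzyme of the family, lay between 0.135 FPKM in TH1 and 2.54 in TH2, and overlapped in every comparison. LOXL2 lay between 2.56 (YL2) and 17.1 (TH2). The log2 fold change of LOX in TH to YH was −0.26 ± 0.49 (SE), which was 0.57 without TH1 and −1.08 without TH2. That of LOXL2 was 0.50 ± 0.63 (SE), which was −0.37 without TH2 and −0.11 with equal FPKM sums.

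Among the proteoglycans, BGN and DCN encode the close relatives biglycan and decorin. BGN (ENSSSCG00000012766, chromosome X, 141845598-141858874) had 258 and 178 for TH, 73.6 and 56.8 for TL, 28.02 and 51.4 for YH, and 43.5 and 38.5 for YL. The TH libraries were the highest, and the lowest Tibetan library still lay above the highest Yorkshire library. Its difference was 2.47 ± 0.35 (SE, adjusted p = 0.0596) in TH to YH and 1.71 ± 0.35 (SE, adjusted p = 0.197) in TH to TL. DCN (ENSSSCG00000000915, chromosome 5, 96109665-96143719) had 72.4 and 148 for TH, 266 and 225 for TL, 164 and 179 for YH, and 152 and 103 for YL. Here TL was highest and TH lay below both TL and YH without overlap (−1.23 ± 0.38 (SE, adjusted p = 0.314) and −0.72 ± 0.38 (SE, adjusted p = 0.398)), while TL lay above YL (0.96 ± 0.38 (SE, adjusted p = 0.522)). Without TH1, the difference of DCN was −0.21 in TH to YH and −0.72 in TH to TL.

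OGN, osteoglycin, was likewise highest in TL, with 10.24 and 12.1 for TH, 30.4 and 22.7 for TL, 9.89 and 6.54 for YH, and 11.4 and 9.41 for YL. The TL libraries lay above the other 6, and the difference was 1.26 ± 0.27 (SE, adjusted p = 0.254) in TL to YL and −1.17 ± 0.27 (SE, adjusted p = 0.221) in TH to TL. LUM, lumican, was 25.2 and 59.7 for TH, 43.3 and 38.1 for TL, 21.01 and 18.8 for YH, and 16.9 and 13.1 for YL. Each Tibetan library exceeded each Yorkshire library, TH2 most, with 1.39 ± 0.39 (SE, adjusted p = 0.343) in TL to YL and 0.93 ± 0.39 (SE, adjusted p = 0.305) in TH to YH. The latter was 0.33 without TH2, 1.54 without TH1 and 0.05 with equal FPKM sums. LUM and DCN are neighbours on chromosome 5 (LUM at 96175703-96184752).

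FMOD, fibromodulin, showed the single-library case, with 2.98 and 4.23 for TH, 6.74 and 4.22 for TL, 1.46 and 1.41 for YH, and 1.71 and 39.6 for YL. YL2, the library with kidney transcripts, was far above the other 7, and the YH to YL difference of −2.11 ± 1.09 (SE, adjusted p = 0.784) became −0.16 without YL2. With YL2 as the lone YL library it was −4.06, with an adjusted p of 0.00147. PRELP, a leucine-rich protein that anchors basement membranes to connective tissue, was 0.193 and 9.66 for TH, 14.00 and 10.3 for TL, 8.59 and 11.6 for YH, and 6.28 and 12.5 for YL. Only TH1 was near 0, and the TH to TL difference of −1.87 became −0.29 without it. VCAN, the large proteoglycan versican, ranged from 1.77 (YL2) to 8.48 (TH2) and was higher in Tibetan pigs and at highland in all 4 comparisons, without overlap and not called.

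**Figure D4:**
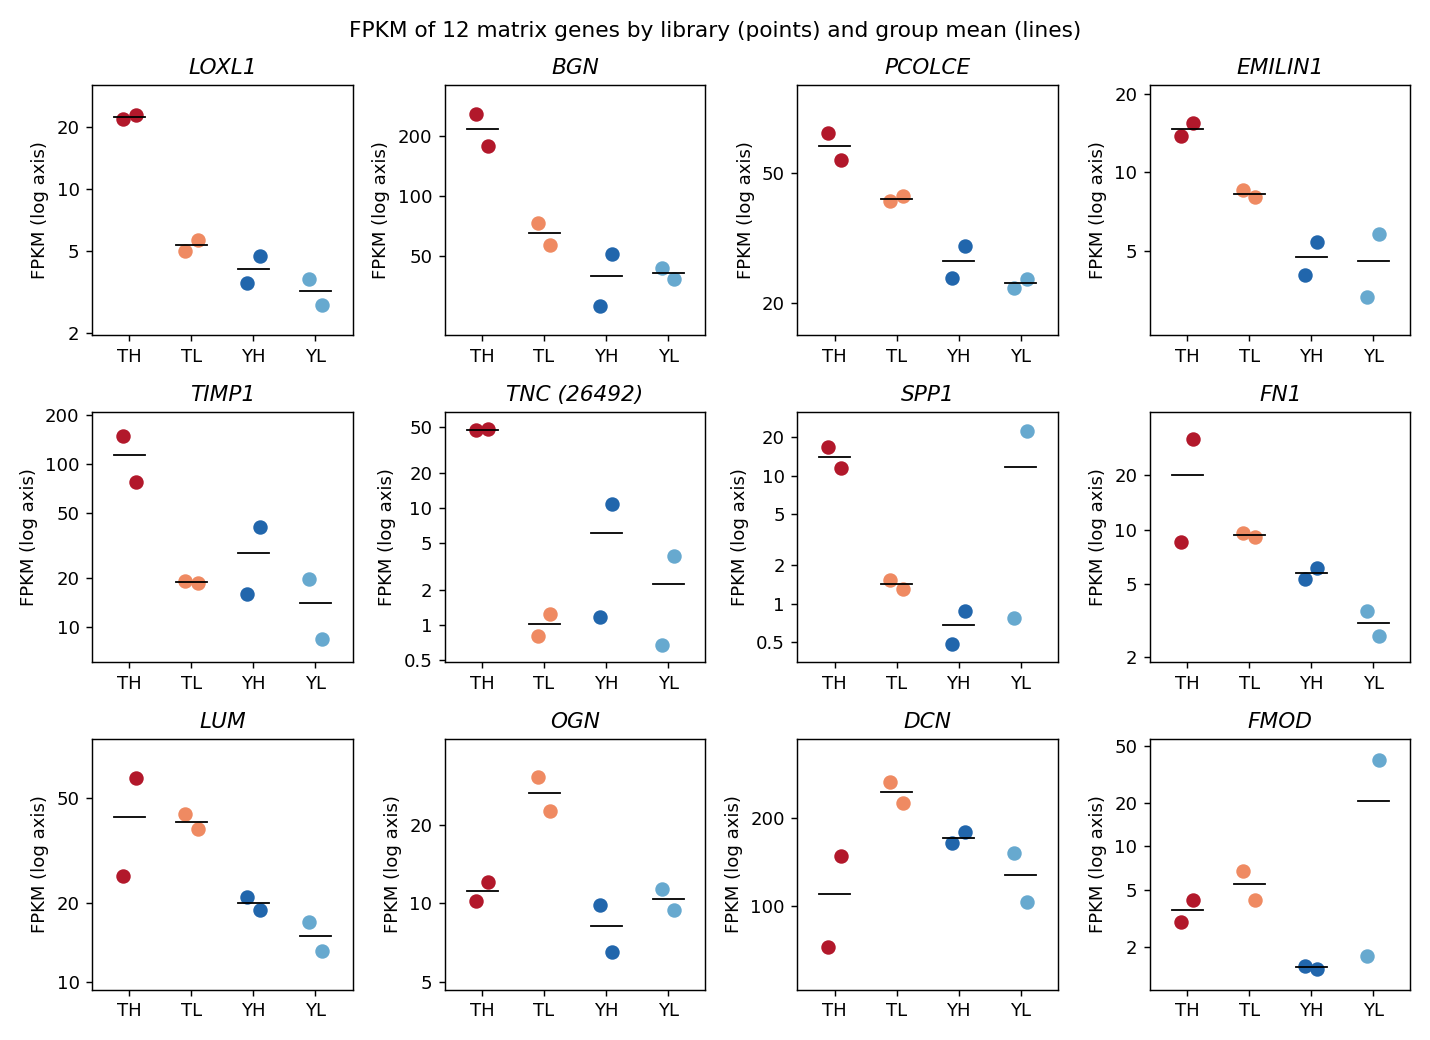
FPKM of 12 matrix genes in each library (points) and the mean of each group (lines), on log axes; TNC is the row of ENSSSCG00000026492. LOXL1, BGN, TIMP1 and TNC have both TH points above all other points, OGN and DCN are highest in TL, and FMOD and SPP1 have a YL library far from its partner.

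Of the 10 rows of adhesive and matricellular glycoproteins, 9 had a fold change above 0 in TH to YH, 7 of them without overlap (70.0%, against 25.2% of all genes), and the median was 0.94, which was 0.41 without TH2 and 1.503 without TH1. This became 6, with a median of 0.20, with equal FPKM sums. The shorter TNC row (ENSSSCG00000026492, chromosome 1, 286604310-286608866), of the stretch- and injury-linked tenascin-C, had 46.5 and 47.5 for TH, 0.808 and 1.23 for TL, 1.17 and 10.95 for YH, and 0.665 and 3.85 for YL. The TH libraries were level and far above TL, and the YH and YL pairs each differed widely. Its difference was 4.58 ± 0.81 (SE, adjusted p = 0.173) in TH to TL and 3.24 ± 0.81 (SE, adjusted p = 0.161) in TH to YH, the latter 2.01 without YH1 and 4.47 without YH2. In a fit of the TH and TL libraries alone, or with equal FPKM sums, it passed the threshold in TH to TL.

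The longer TNC row (ENSSSCG00000005494, chromosome 1, 286732771-286813962) had 0.764 and 15.97 for TH, 0.261 and 0.203 for TL, 0.401 and 3.49 for YH, and 0.0420 and 0.939 for YL. Here TH2 alone was high, and since the row was tested only through TH2 and YH2, its TH to TL difference of 2.15 ± 1.04 (SE), which was 0.52 without TH2, is a description. The shorter row held 60.8 times the FPKM of the longer row in TH1, and 2.92 to 15.8 times in the other libraries. The ADAMTS1 rows differed likewise, by 11.8 times in TH1 and 0.972 to 2.24 times elsewhere, so that the rows of these genes cannot be read as 1 level in TH1.

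SPP1, osteopontin, was 16.7 and 11.6 for TH, 1.53 and 1.30 for TL, 0.484 and 0.880 for YH, and 0.770 and 22.5 for YL. Both TH libraries and YL2 were high and the other 5 libraries low. The difference was 3.16 ± 1.04 (SE, adjusted p = 0.231) in TH to YH and 2.63 ± 1.04 (SE, adjusted p = 0.409) in TH to TL, while the YH to YL difference of −1.95 became −0.08 without YL2. FN1, fibronectin, the main adhesive glycoprotein, was 8.59 and 31.4 for TH, 9.63 and 9.13 for TL, 5.38 and 6.19 for YH, and 3.57 and 2.62 for YL. Each Tibetan library was above each Yorkshire library, and TH2 was more than 2 times any other. The difference was 1.35 ± 0.52 (SE, adjusted p = 0.505) in TL to YL and 1.38 ± 0.52 (SE, adjusted p = 0.273) in TH to YH, the latter 0.50 without TH2.

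SPARC, a collagen-binding matricellular protein, was 10.5 and 77.7 for TH, 59.6 and 60.4 for TL, 30.7 and 38.1 for YH, and 21.7 and 29.5 for YL. TH1 was lowest and TH2 highest, so TH overlapped with both of its partners, while TL was above YL without overlap (1.21 ± 0.78 (SE, adjusted p = 0.706)). THBS1, a thrombospondin that can activate latent TGF-beta, was 13.03 and 23.6 for TH, 15.8 and 9.82 for TL, 8.54 and 11.6 for YH, and 12.5 and 36.7 for YL. YL2 was its highest library, and the YH to YL difference of −1.04 became −0.30 without it. TNXB, tenascin-X, which binds collagen fibrils, was 10.7 and 13.03 for TH, 14.7 and 16.9 for TL, 11.4 and 11.6 for YH, and 8.72 and 6.71 for YL. TL was the highest group, with 0.96 ± 0.22 (SE, adjusted p = 0.269) in TL to YL, and TH lay below TL without overlap at −0.39 ± 0.22 (SE, adjusted p = 0.545). POSTN, periostin, ranged from 1.62 (YL1) to 10.99 (TH2), THBS2 from 2.22 (YL2) to 5.31 (TH2) and THBS3 from 0.559 (YL2) to 3.01 (TH2), and all 3 were higher in Tibetan pigs at both altitudes without overlap.

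Of the 7 elastic fibre and microfibril genes tested, 6 had a fold change below 0 in TH to YH, with a median of −0.39, which was 0.37 without TH1 and −1.40 without TH2. In TL to YL the median was 0.46 and in YH to YL 0.59, with all 7 above 0 in the latter. FBLN5, which binds elastin to cells and is needed for fibre assembly, was 99.96 and 70.8 for TH, 32.1 and 58.8 for TL, 99.96 and 121 for YH, and 97.2 and 54.3 for YL. The TL libraries were low, and TH lay above TL (0.94 ± 0.40 (SE, adjusted p = 0.446)) and below YH (−0.38 ± 0.40 (SE, adjusted p = 0.661)) without overlap, the latter only just, since TH1 and YH1 were level to within the digits printed. Without TH2 the TH to YH difference was −0.14 and without TH1 −0.63, and that of TH to TL was 0.51 without TL1. MFAP5, a microfibril-associated glycoprotein, was 55.3 and 170.4 for TH, 159 and 176 for TL, 133 and 163 for YH, and 93.5 and 51.9 for YL. TH1 and YL2 were the low libraries, with 1.07 ± 0.54 (SE, adjusted p = 0.784) in YH to YL and 1.25 ± 0.54 (SE, adjusted p = 0.564) in TL to YL, and 0.65 and 0.83 without YL2.

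ELN, elastin, was 4.10 and 23.7 for TH, 20.7 and 18.98 for TL, 14.5 and 17.1 for YH, and 7.61 and 6.44 for YL. TH1 was lowest here too, and TL and YH lay above YL without overlap (1.38 ± 0.65 (SE, adjusted p = 0.617) and 1.06 ± 0.65 (SE, adjusted p = 0.784)). FBN1, fibrillin-1, the backbone of microfibrils, was 0.362 and 11.6 for TH, 3.04 and 3.12 for TL, 3.35 and 5.73 for YH, and 2.63 and 1.44 for YL. TH1 was the lowest and TH2 the highest library, more than 2 times any other, and the YH to YL difference was 0.86 ± 0.91 (SE, adjusted p = 0.834). EMILIN1, a glycoprotein at the elastin-microfibril interface, was the exception, since each Tibetan library was above each Yorkshire library and the TH libraries (13.8 and 15.5 FPKM) were the highest. FBLN1, fibulin-1, ranged from 4.64 (TH1) to 21.3 (TH2) and FBN2 from 0.177 (YL2) to 1.28 (YH2).

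Both basement membrane members were lowest in YL2 or TH1. HSPG2, the heparan sulfate proteoglycan perlecan, was 11.5 and 49.5 for TH, 41.1 and 51.7 for TL, 30.5 and 33.1 for YH, and 19.8 and 13.9 for YL. TL lay above YL without overlap (1.42 ± 0.59 (SE, adjusted p = 0.555)) and YH above YL (0.90 ± 0.59 (SE, adjusted p = 0.784)). NID2, nidogen-2, which links laminin and collagen IV networks, ranged from 12.2 (YL2) to 55.1 (TH2).

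Matrix proteases were higher in Tibetan pigs by the mean over both altitudes in all 7 rows tested, with a median of 0.70, and in 5 with equal FPKM sums, with a median of 0.20. MMP2, gelatinase A, was 30.2 and 51.5 for TH, 52.2 and 46.4 for TL, 36.6 and 37.9 for YH, and 29.7 and 12.02 for YL. YL2 was low and the other 7 libraries lay between 29.7 and 52.2, so the TL to YL difference of 1.33 ± 0.43 (SE, adjusted p = 0.417) was 0.71 without YL2. MMP14, the membrane-bound activator of pro-MMP2, was the steadiest, from 6.02 (YL1) to 9.86 (YH2), and its TH to YH difference was −0.11 ± 0.20. MMP19 ranged from 0.699 (YL1) to 4.31 (TH2) and ADAMTS4, a protease of versican and aggrecan, from 0.145 (YL2) to 3.81 (TH2), and both were higher in the first group of all 4 comparisons without overlap. Of the ADAMTS1 rows, ENSSSCG00000029488 ranged from 2.34 (YH1) to 14.9 (TH2) and ENSSSCG00000012026 from 0.822 (TH1) to 8.47 (TL1). ADAMTS9 ranged from 1.45 (YL2) to 4.11 (TH2).

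The inhibitors of metalloproteinases parted ways in TH1. TIMP1 (ENSSSCG00000012277, chromosome X, 47336628-47400702), the inducible secreted inhibitor, was 149.8 and 77.8 for TH, 19.1 and 18.6 for TL, 15.8 and 41.01 for YH, and 19.6 and 8.42 for YL. Both TH libraries were above the other 6, TH1 most, with 2.46 ± 0.56 (SE, adjusted p = 0.221) in TH to TL and 2.04 ± 0.56 (SE, adjusted p = 0.183) in TH to YH. The latter ranged from 1.38 to 2.70 with each library left out in turn. TIMP3, the inhibitor bound to matrix, ranged from 1.70 in TH1 to 37.8 in YH2, and all libraries but TH1 were at 26.2 or above. TIMP4 ranged from 0.352 (YL2) to 2.53 (TL2). TIMP1, BGN and LOXL1 were thus high in TH1, the library in which TIMP3, PRELP, LOX and FBN1 were at their lowest.

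MGP, matrix Gla protein, which inhibits calcification, was the most abundant member, with 379.6 and 521 for TH, 613 and 427 for TL, 276 and 363 for YH, and 475 and 197 for YL. TH lay above YH without overlap (0.49 ± 0.46 (SE, adjusted p = 0.619), but −0.49 with equal FPKM sums), while the YL libraries spanned most of the range. VCL, vinculin, is a cytoskeletal protein of adhesion plaques rather than of the matrix, and is abundant in muscle cells. It was 56.6 and 57.6 for TH, 46.7 and 54.6 for TL, 54.2 and 64.4 for YH, and 46.7 and 26.7 for YL. YL2 was low and the others were close, and the YH to YL difference of 0.73 ± 0.30 (SE, adjusted p = 0.784) was 0.33 without YL2.

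With every library at the same FPKM sum, the TH to YH difference was 1.44 for BGN, 0.55 for FN1, 1.59 for SPP1, 0.9995 for TIMP1, 1.85 for the shorter TNC row, −1.64 for DCN and −1.32 for FBLN5, where the median of all genes was −0.50. The TH to TL difference was 1.08 for LOXL1, 1.06 for BGN, 1.43 for SPP1 and 0.29 for FBLN5, where that of all genes was −0.27.

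Over both altitudes, 39 of 45 members had a higher mean log2 level in Tibetan than in Yorkshire pigs, with a median log2 fold change of 0.57 (−0.01 over all genes). Without TH2, 30 did, with a median of 0.25. A total of 24 did with equal FPKM sums, with a median of 0.04, against −0.39 over all genes. No member was called, against 0.0504% of all genes, and 19 were higher and 0 lower at an unadjusted p under 0.05, against 13.5%. All 4 Tibetan libraries lay above all 4 Yorkshire libraries in 10 members and below them in 0, against 4.57% and 3.47% of all genes. The 10 were FN1, THBS2, LOXL1, PCOLCE, SERPINH1, EMILIN1, MMP19, BGN, LUM and ADAMTS1 (ENSSSCG00000029488). The gap was narrow in several. The lowest Tibetan library was 1.39 times the highest Yorkshire library in FN1 and EMILIN1, 1.37 times in PCOLCE, 1.06 times in LOXL1 and 1.001 times in SERPINH1. With median-ratio scaling 8 members were apart and higher and 0 lower, against 3.28% and 4.50% of all genes. With equal FPKM sums 0 were apart in either direction, against 0.252% and 3.54%. Without TH1 and YL2, 21 were higher and 1 lower, against 10.9% and 9.02%.

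The altitudes were compared next, within each breed. No member was called in TH to TL, where 0.0504% of all genes were, nor in YH to YL, where 0% were. At an unadjusted p under 0.05, 10 members, LOXL4 among them, were higher and 2 lower in TH than in TL, against 11.3% of all genes. The 2 were OGN and DCN. In YH to YL, 2 were higher and 0 lower, against 5.97%, namely VCL and TNXB. The median log2 fold change was 0.17 in TH to TL and 0.42 in YH to YL. The value in TH to TL was 0.56 without TH1 and −0.01 without TH2. With equal FPKM sums it was −0.05, above the −0.27 to which that scaling moved the median of all genes. Both TH libraries were above both TL libraries in 18 members, which include LOXL4 and the longer TNC row, and below in 4 (DCN, OGN, PRELP and TNXB), against 24.0% and 24.5% of all genes. Both YH libraries were above both YL libraries in 24 members and below in 3 (FMOD, THBS1 and LOXL4), against 21.9% and 14.4%. With equal FPKM sums these counts were 7 and 3 in TH to TL, against 2.05% and 24.6%, and 10 and 0 in YH to YL, against 10.3% and 1.67%. With median-ratio scaling they were 14 and 4, against 20.01% and 28.9%, and 21 and 4, against 19.7% and 14.7%.

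These comparisons share no library, and 8 members were higher at highland without overlap in both breeds (17.8%, against 3.64% of all genes). They were ADAMTS4, FBLN5, MMP19, NID2, PCOLCE, TGM2, VCAN and VCL. Over both breeds, 33 of 45 members had a higher mean log2 level at highland, with a median of 0.31 (0.00 over all genes). Without TH2, 27 did, with a median of 0.12, and with equal FPKM sums 25 did, with a median of 0.06, against −0.15 over all genes. No member was called, against 0.0336% of all genes, and 11 were higher and 1 lower at an unadjusted p under 0.05, against 7.22%. In 0 members did all 4 highland libraries lie above or below all 4 lowland libraries, against 1.63% and 1.06% of all genes.

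The interaction, which is the altitude difference of Tibetan pigs less that of Yorkshire pigs, asks whether the breeds differ in their altitude difference. No member was called, against 0.0336% of all genes, and 7 had an unadjusted p under 0.05 (4 above and 3 below 0), against 10.9%. The lowest adjusted p was that of LOXL1, 1.61 ± 0.32 (SE, adjusted p = 0.256), followed by BGN at 1.82 ± 0.49 (SE, adjusted p = 0.333).

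By group means, TH was the highest of the 4 groups in 21 members (46.7%, against 30.1% of all genes tested). TL was highest in 14 (against 19.7%), YH in 8 (against 25.5%) and YL in 2 (against 24.8%). The 21 include LOXL4 and the longer TNC row, which passed the filter only through the TH libraries, or TH2 and YH2. YL was lowest in 28 (62.2%, against 26.0%). The YL share included YL2, the library with kidney transcripts.

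Other matrix genes were kept in a list apart from the members. Of 30 tested, 16 had a fold change above 0 in TH to YH, with a median of 0.02, and 19 in TL to YL, with a median of 0.36. At an unadjusted p under 0.05, 5 were higher and 3 lower in TH to YH (26.7%, against 16.2% of all genes), 4 and 1 in TL to YL (16.7%, against 8.94%), 4 and 4 in TH to TL (26.7%, against 11.3%), and 2 and 1 in YH to YL (10%, against 5.97%). Of 27 other matrix enzymes and inhibitors tested, 25 had a fold change above 0 in TH to YH and 22 in TL to YL, with medians of 0.37 and 0.21. With equal FPKM sums, 7 of these 27 were above 0 in TH to YH, with a median of −0.24, and 5 of the 30 others, with a median of −0.46, against −0.50 over all genes. At an unadjusted p under 0.05, 6 were higher and 0 lower in TH to YH (22.2%), 7 and 0 in TL to YL (25.9%), 5 and 1 in TH to TL (22.2%), and 2 and 1 in YH to YL (11.1%), beside the same shares of all genes. No gene of these lists was compared with the members by a test.

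Markers of other cell types were summed in each library. Of 12 fibroblast rows tested, 6 were higher and 0 lower at an unadjusted p under 0.05 in TL to YL (50.0%, against 8.94% of all genes), with a median of 1.34. In TH to YH 2 were higher and 0 lower (16.7%, against 16.2%), with a median of 0.07, which was 1.15 without TH1 and −0.56 without TH2. COL1A1, a collagen chain made by fibroblasts, has 2 rows. That on chromosome 12 was 43.3 and 192 for TH, 187 and 124 for TL, 45.4 and 80.3 for YH, and 34.6 and 47.8 for YL. The other was 2.05 and 51.9 for TH, 34.7 and 23.3 for TL, 12.8 and 18.03 for YH, and 7.36 and 6.68 for YL. TH1 lay below both TL libraries in each row, within the range of the Yorkshire libraries in the first and below all of them in the second, while LOXL1 and BGN were high in TH1. Other fibroblast markers were split in TH1. COL3A1 was 18.2, below the 36.8-68.1 of the Yorkshire libraries. COL1A2 (chromosome 9) was 32.7, above their 15.4-17.9, and THY1 was 34.7, above their 8.89-18.8. Smooth muscle markers (5 tested) summed to 335-369 FPKM in TH, 231-242 in TL, 174-217 in YH and 108-127 in YL, endothelial markers (6 tested) to 194-203, 169-179, 162-173 and 99.2-120.5, and macrophage markers (5 tested) to 31.8-32.9, 20.8-23.9, 28.1-45.6 and 26.5-26.8. These sums rest on the most abundant rows, and other rows went the other way. MYH11 was 0.388 and 2.69 for TH and 4.87 and 3.62 for TL, and VWF was 1.07 in TH1. The median log2 fold change was 0.04 in TH to TL for smooth muscle markers and −0.03 in TH to YH for endothelial markers. Blood genes (4 tested) summed to 1629-3100 in TH, 1234-1402 in TL, 1029-1064 in YH and 526-633 in YL. Cartilage and valve markers summed to at most 3.05 FPKM and adipocyte markers to at most 3.40 in any library, and COL2A1, the collagen that defines cartilage, was at most 0.0129 FPKM. Cardiomyocyte markers (9 tested) summed to 32782 FPKM in TH1 and 17502 in TH2, and to 26135 in YL1 and 11230 in YL2, with 24026-26665 in TL and 19417-19588 in YH. The part of cell composition in the breed difference was not tested.

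Rows without a symbol in the table were matched by gene ID to a table of pig gene names and stand outside all counts above. NID1, nidogen-1, was 4.78 and 34.5 for TH, 23.2 and 23.7 for TL, 19.4 and 23.7 for YH, and 14.8 and 13.1 for YL, with TH1 lowest and TH2 highest. THBS4, thrombospondin-4, was 0.881 and 10.17 for TH, 1.77 and 1.37 for TL, 6.36 and 7.27 for YH, and 3.11 and 2.73 for YL, also lowest in TH1 and highest in TH2. FBLN2, fibulin-2, was 9.59 and 16.7 for TH, 8.88 and 7.33 for TL, 7.86 and 10.98 for YH, and 7.08 and 4.17 for YL. AGRN, agrin, was 4.57 and 7.26 for TH, 9.66 and 12.5 for TL, 6.66 and 4.14 for YH, and 10.4 and 8.79 for YL, with all lowland libraries above all highland libraries. LOXL3 stayed under 1 FPKM in all libraries. The second row of SPARC, on chromosome 16, had TH1 at 19.6 FPKM and TH2 at 187, the same lowest and highest libraries as the first.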

How the data were processed

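Hearts of male pigs were measured by RNA-seq in 8 libraries. The authors aligned paired-end reads of 100 bases to Sscrofa10.2 with TopHat2 (2.0.9; Bowtie 0.12.5), and deposited FPKM from Cufflinks for each gene and library. The deposited table also holds, for every gene, its reads after scaling by the authors, a signal with a library-wide factor. Divided by the smallest step of its library, 99.8% of its low values fell within 0.1 of a whole number, and it was used for the reads on genes and 1 alternative. Another 8 columns with the authors' group means and comparisons were not used.

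FPKM was analysed as log2(FPKM + 1) with limma 3.58.1 in R 4.3.3 (trend, group means, all 8 libraries), for genes that reached 1 FPKM in 2 or more libraries. The limma fit had 4 residual and 2.83 prior degrees of freedom. P-values were adjusted by the Benjamini-Hochberg method over 11913 genes, and the script was tested on simulated data. FPKM depends on the other genes of a library, and FPKM sums ranged from 1563940 to 8559104, so scaling alternatives were run. Replicates are pools of different animals. Pools hide the spread between animals, and 2 libraries per group limit the precision.

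Members and related lists were chosen with earlier results of these data known. Values in each library were given for the 10 members with the highest mean FPKM, for up to 5 largest differences in each direction of the 4 comparisons among members whose libraries did not overlap, for any member called, and for members with 1 library more than 2 times the next highest. Others were given by range. Alternatives were the pseudocount, filter, scaling, moderation, replicate block, samples fitted and each library left out. No sequence is shown.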

Additional observations from a re-analysis of the deposited data

Results flagged for a closer look

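In 3 members the altitude difference went in opposite directions in the breeds without overlap of the libraries. The share of all genes that did so is not given here, so the count is not read as a trait of the members. Of all genes, 24.0% were higher and 24.5% lower without overlap in TH to TL, and 21.9% and 14.4% in YH to YL. DCN, decorin, was lower in TH than in TL and higher in YH than in YL, and the difference between the breeds in the altitude difference was −1.68 on the log2 scale (limma interaction, adjusted p = 0.371). TNXB, tenascin-X, went the same way, with −0.92 (adjusted p = 0.38). LOXL4, a lysyl oxidase homologue, was higher in TH than in TL and lower in YH than in YL, with 0.70 (adjusted p = 0.458), but it was tested only because both TH libraries reached 1 FPKM, the group where it is high. None passed the test of the difference. In DCN, TH1 was the lowest of all 8 libraries.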

How the results depend on the processing

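Under an adjusted p of 0.05, 1 of 45 members (LOXL1) passed in TH to YH, against 31 of all 11913 genes tested. In Tibetan to Yorkshire over both altitudes 1 passed, LOXL1 again, against 56 of all genes. LOXL1 did not in TH to YH with median-ratio scaling (adjusted p = 0.0506, log2 fold change 2.09), without TH1 (0.151, at 2.24) or with equal FPKM sums (0.709, at a log2 fold change of 1.09 in place of 2.21). In TH to TL, 1 member (the TNC row of ENSSSCG00000026492) passed with equal FPKM sums, and 1, the same row, in a fit of the libraries compared alone. With equal FPKM sums, the median log2 fold change of the members was −0.13 in TH to YH, 0.28 in TL to YL, −0.048 in TH to TL and 0.039 between the breeds, and the members higher without overlap were 4 in TH to YH, 18 in TL to YL (2 lower), 7 in TH to TL, 10 in YH to YL (0 lower) and 0 between the breeds. With median-ratio scaling, 2 members were lower in TL to YL (against 19.4% of all genes) and 1 was higher at highland over both breeds (against 1.25%). Among genes of a mean of at least 10 FPKM, the median was −0.13 in TH to TL and −0.50 in the interaction, and without a filter that of the interaction was 0.028. Without TH1 and YL2, chosen after seeing the data, the median was 0.96 in TH to YH, 0.56 in TH to TL and 0.40 in the interaction, and the members without overlap were 38 higher in TH to YH (84.4%, against 37.1% of all genes), 4 lower in TL to YL (8.89%, against 35.5%), 34 higher in TH to TL (75.6%, against 40.8%), 6 lower in YH to YL (13.3%, against 31.4%), 21 higher and 1 lower between the breeds (46.7% and 2.22%, against 10.9% and 9.02%), and 4 higher at highland over both breeds (8.89%, against 9.21%). The cause of these shifts was not tested.

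With each library left out in turn, members were called only without YL1, where YL2 stood alone for YL. This was in TL to YL, YH to YL, the interaction, between the breeds and between the altitudes over both breeds. The members were FMOD and SPP1, or LOXL1 between the breeds. The share of all genes called in that fit is not given here, so these calls are not read as a result about the members. The median ranged from 0.26 to 0.96 in TH to YH, from −0.011 to 0.56 in TH to TL and from −0.42 to 0.18 in the interaction, the lowest without TH2 and the highest without TH1 each time. Members without overlap ranged from 23 to 38 higher and 2 to 18 lower in TH to YH, from 18 to 34 higher and 4 to 22 lower in TH to TL, from 2 to 6 lower in TL to YL (25.02% to 42.8% of all genes), from 4 to 7 lower in YH to YL (21.4% to 39.8%), from 10 to 19 higher between the breeds (5.08% to 8.07%) and from 0 to 6 higher at highland (2.09% to 5.48%). The shares of all genes moved too: without TH2, the 18 lower in TH to YH stand against 45.1% of all genes and the 22 lower in TH to TL against 45.6%, and without TH1, the 38 and 34 higher against 37.1% and 40.8%. A group of 1 library overlaps less by construction, and a lone library was assumed to vary like the others.

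Deviations of samples of the same replicate number were weakly correlated at most (correlations between −0.084 and 0.118), and the main fit used no pairing by number. With 2 libraries per group, of which TH1 and YL2 stood apart, this cannot exclude a shared batch. A fit with the replicate number as a block called 0 members in all comparisons and left the median in TH to YH at 0.59. The planned count test was not run, since not all values were whole. In its place, limma on log2(scaled read value + 1), chosen after seeing the data, called 0 members. With equal FPKM sums, 9 of 45 members changed sign in TH to YH, among them MGP (from 0.49 to −0.49) and SERPINH1 (from 0.84 to −0.13), 3 in TL to YL, 9 in TH to TL, 2 in YH to YL and 15 between the breeds. With median-ratio scaling 2, 1, 2, 1 and 5 did.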
